A study of Rattus norvegicus with 31 samples.

Results

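The motor neurons of the rat tail were compared 21 days after the spinal cord had been cut, in 8 arrays titled Spi-21, with those of uninjured rats, in 4 arrays titled Control. These 12 arrays were chosen by their titles from the 31 arrays of the series, and the comparison was read on 12913 probe sets, that is on every probe set of the table other than the array's own control probes. Spi-21 rats were adult male Wistar rats in which a piece of cord had been removed at the second sacral segment, and they received buprenorphine after surgery. Control rats were adult male Wistar rats whose sacral cord was frozen without any injury or sham surgery. In both groups the tail motor neurons had been labelled in the living animal with the retrograde tracer Fluoro-Gold, cut out of frozen sections below the lesion level by laser, and pooled within 1 animal, so that each array is 1 animal. The remaining arrays came from rats killed 2, 7 and 60 days after the same lesion (6, 5 and 8 arrays). The Spi-21 arrays, like those of day 60, were taken over from an earlier study, whereas the Control arrays were made with those of days 2 and 7. For differences between Spi-21 and Control, injury and study therefore cannot be told apart.

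A complete transection removes every descending input from the motor neurons below it, among them the serotonergic and noradrenergic fibres that set motor neuron excitability. The tail is first flaccid and becomes spastic over the following weeks, and spasticity is known to involve persistent inward currents of the motor neuron and a weakened chloride-dependent inhibition. The neurons keep their own axon to the muscle, so that the lesion is not an axotomy. A laser-cut motor neuron also carries with it pieces of the synapses, glia and neighbouring neurons that touch it, and in such material fewer cells of a type and less RNA per cell cannot be told apart.

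The labelled cell type was borne out by its abundant genes. Prph, which encodes the intermediate filament peripherin, and Uts2, the peptide urotensin 2 of somatic motor neurons, had log2 values above 10 on all 12 arrays, and the summed level of 8 motor neuron markers lay between 50539 and 61684 in Spi-21 animals and between 45554 and 65359 in Control animals, on the linear scale. Chat was not analysed here. Array medians were alike, but the interquartile range of the log2 values averaged 1.83 ± 0.06 in Spi-21 arrays and 1.99 ± 0.03 in Control arrays (SD, n = 8 and 4), with no overlap (two-sided exact permutation test, p = 0.00404, the smallest that 8 against 4 allows). The 3′ minus 5′ difference of the Actb control probe sets, a measure of how far the amplified RNA was shortened, averaged 3.31 ± 0.32 in Spi-21 arrays and 2.89 ± 0.19 in Control arrays (p = 0.0242, same exact test), and that of Gapdh 2.29 ± 0.94 and 2.01 ± 0.33 (p = 0.602, same exact test). Spi-21 replicates 1 to 3 stood apart. On the first principal component of the 12 arrays, which held 38.0% of the variance, they lay at 26.3 to 39.0, against -3.23 to 6.88 for the other 5 Spi-21 arrays and -30.5 to -21.3 for Control. The Gapdh 3′ minus 5′ differences of Spi-21 replicates 1 to 3 were 2.90 to 3.54. Replicate 4 lay close to them in this measure, at 2.76, and replicates 5 to 8 lay at 1.13 to 1.66. Without Spi-21 replicates 1 to 3, 680 probe sets were called in place of 2148, and 58 of the 138 called probe sets named by rule were no longer called. For the genes described in these Results, it is stated below where leaving out these 3 arrays ended the call. A called value that moved by more than 1.5 times is stated too.

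At day 21, 2148 of 12913 probe sets differed from Control at an adjusted p under 0.05 (limma's moderated test with Benjamini-Hochberg adjustment), which is 16.6% of those tested. They were 1381 probe sets that were lower in Spi-21 (10.7%) and 767 that were higher (5.94%). The count was 1197 without Control replicate 2 and 1276 without Control replicate 3. The decreases were also the deeper ones, since 259 of the lower probe sets differed by more than 1 on the log2 scale and only 21 of the higher ones did. The median log2 fold change was -0.71 among the lower and 0.44 among the higher calls, and 0.01 over all probe sets. All values were separated between the groups in 946 probe sets (7.33%), of which 845 were called. The split between lower and higher depended on how the arrays were scaled to each other. Of the changed probe sets 35.7% were higher with the values as deposited, 52.1% after a further quantile normalization and 55.3% after median and MAD scaling. Bright probe sets shifted most, and the median log2 fold change of the brightest quintile was -0.15 as deposited, 0.02 after quantile normalization and 0.11 after MAD scaling. All 2148 calls kept their sign when Spi-21 replicates 1 to 3 were left out and after quantile normalization, and 2133 did after MAD scaling. Calls common to these 3 fits, to a fit of the 12 arrays alone and to the fit with all 31 arrays numbered 526, of which 401 were lower and 125 higher in Spi-21. They are called the 526 stable calls below.

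**Figure D1:**
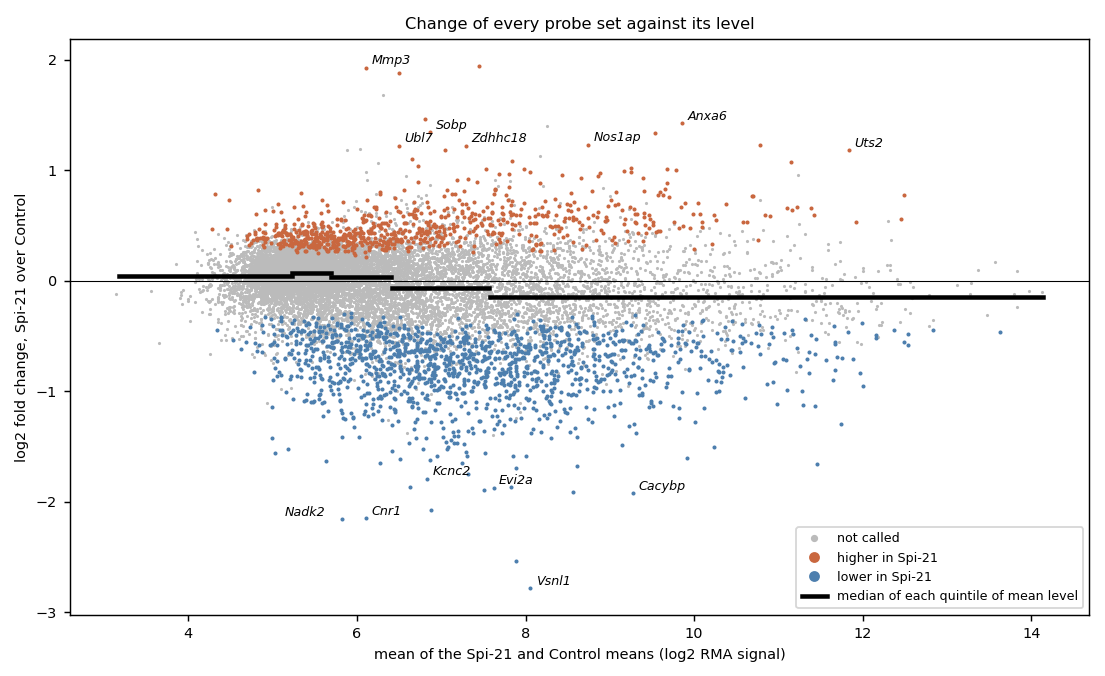
The log2 fold change of Spi-21 over Control (vertical axis) is plotted against the mean log2 level of each of the 12913 probe sets (horizontal axis), with called probe sets in colour and black bars for the median of each quintile of level. The blue points reach below -2 while few orange points pass 1, and the bar of the brightest quintile lies at -0.15.

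The 12 deepest decreases were picked among called genes with separated groups, so that the separation follows from the choice. They included a calcium sensor, a receptor and a channel of neuronal signalling. Gad1 (-2.53), Penk (-1.90), Slc32a1 and Slc17a6 (-1.87 each), called genes described below whose groups overlapped, were not part of this choice. Vsnl1 encodes visinin-like protein 1, which carries calcium signals to membranes. Its log2 value was 6.06 at the lowest, 6.69 at the median and 7.30 at the highest in Spi-21 animals, and 10.32, 9.95, 9.44 and 8.08 in Control animals. Every Spi-21 value lay below the lowest Control value, and the log2 fold change was -2.78 ± 0.36 (SE, adjusted p = 4.4e-05, limma). Cnr1, the CB1 cannabinoid receptor found on presynaptic endings, ranged from 4.47 through a median of 4.98 to 5.59 in Spi-21 animals and read 7.36, 7.45, 7.79 and 6.11 in Control animals. The log2 fold change of Cnr1 was -2.15 ± 0.25 (adjusted p = 1.3e-05, limma). A second Cnr1 probe set of the same brightness differed by 0.10 ± 0.10 (adjusted p = 0.55, limma), so the decrease was seen by 1 of 2 probe sets. Kcnc2, the Kv3.2 potassium channel subunit of fast-firing neurons, read 4.93, 6.03 and 6.73 (lowest, median, highest) in Spi-21 animals and 8.02, 7.43, 8.24 and 7.24 in Control animals, a change of -1.79 ± 0.38 (adjusted p = 0.0023, limma). Of its 3 other, dimmer probe sets none was lower and 1 was higher, by 0.47 (adjusted p = 0.028, limma). In Vsnl1 and Cnr1 the Control animal nearest to the Spi-21 values was replicate 4.

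Further genes with separated groups concerned vesicle traffic and mitochondrial and haem metabolism. Nbea, which encodes the trafficking scaffold neurobeachin, read 6.34, 8.01 and 8.56 (lowest, median, highest) in Spi-21 animals and 9.52, 9.21, 9.51 and 9.53 in Control animals, and fell by 1.67 on the log2 scale (adjusted p = 0.00029, limma). Stxbp3, a syntaxin-binding protein of vesicle fusion, read 5.57, 6.52 and 7.14 in Spi-21 animals and 8.33, 8.25, 8.10 and 7.60 in Control animals, and fell by 1.65 (adjusted p = 0.00027, limma). Cpox, an enzyme of haem synthesis, read 3.98, 4.60 and 5.89 in Spi-21 animals and 6.53, 6.58, 6.73 and 5.95 in Control animals. The 2 nearest values of Cpox, one from each group, were thus close, and its change was -1.63 ± 0.30 (adjusted p = 0.00071, limma). Nadk2, the mitochondrial NAD kinase, had a median of 5.57 and a highest value of 5.85 in Spi-21 animals, but a lowest of 1.55. Its Control values were 6.94, 7.29, 7.26 and 6.11. The change of -2.16 ± 0.52 (adjusted p = 0.006, limma) was -1.22 without Spi-21 replicates 1 to 3, which held the 3 lowest values. In the fit of the 12 arrays alone Nadk2 was not called (adjusted p = 0.057, limma). The remaining genes of the 12 with the deepest separated decreases were Cacybp (-1.92), a calcyclin-binding protein, Evi2a (-1.87), Errfi1 (-1.74), an inhibitor of epidermal growth factor receptor signalling, Tmem178a (-1.62) and Olfm3 (-1.59), a secreted olfactomedin, with adjusted p-values between 0.00033 and 0.0062 (limma). Cacybp was at -1.26 without Spi-21 replicates 1 to 3 and stayed called.

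Of the genes that rose with separated groups, Mmp3 moved furthest. It encodes stromelysin-1, a secreted protease of the extracellular matrix, and read 6.40, 6.84 and 8.34 (lowest, median, highest) in Spi-21 animals and 4.82, 5.49, 4.76 and 5.51 in Control animals, a change of 1.93 ± 0.39 (adjusted p = 0.0017, limma). Anxa6, the calcium-dependent membrane-binding protein annexin A6, read 9.79, 10.46 and 11.23 in Spi-21 animals and 9.16, 9.05, 8.95 and 9.41 in Control animals, a change of 1.42 ± 0.21 (adjusted p = 0.00015, limma). Both were among the stable calls. The 3 highest values of Anxa6 came from Spi-21 replicates 1 to 3, and without them its change was 1.05. Uts2 read 12.12, 12.48 and 12.84 in Spi-21 animals, wholly above the 10.50, 11.22, 11.64 and 11.65 of Control animals. Its rise of 1.18 ± 0.18 (adjusted p = 0.0002, limma) was 1.17 without Spi-21 replicates 1 to 3. The others among the 12 highest were Sobp (1.34), the adaptor of neuronal nitric oxide synthase Nos1ap (1.23), the palmitoyltransferase Zdhhc18 (1.22), the ubiquitin-like genes Ubl7 (1.22) and Ubl5 (1.04), the beta-tubulin Tubb2b (1.07), the non-coding Snhg11 (1.02), the cytochrome oxidase assembly factor Pet100 (1.01) and the valyl-tRNA synthetase Vars1 (1.01). Adjusted p-values of these 9 lay between 0.00051 and 0.024 (limma). Without Spi-21 replicates 1 to 3, Nos1ap, Tubb2b, Snhg11, Pet100 and Vars1 were no longer called, at 1.04, 0.87, 0.93, 0.73 and 0.85 (adjusted p = 0.14, 0.093, 0.073, 0.085 and 0.073, limma). Ubl5 stayed called without them at 0.63. The increase of Snhg11 was carried by 1 of 3 probe sets, and its brightest one differed by -0.08.

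**Figure D2:**
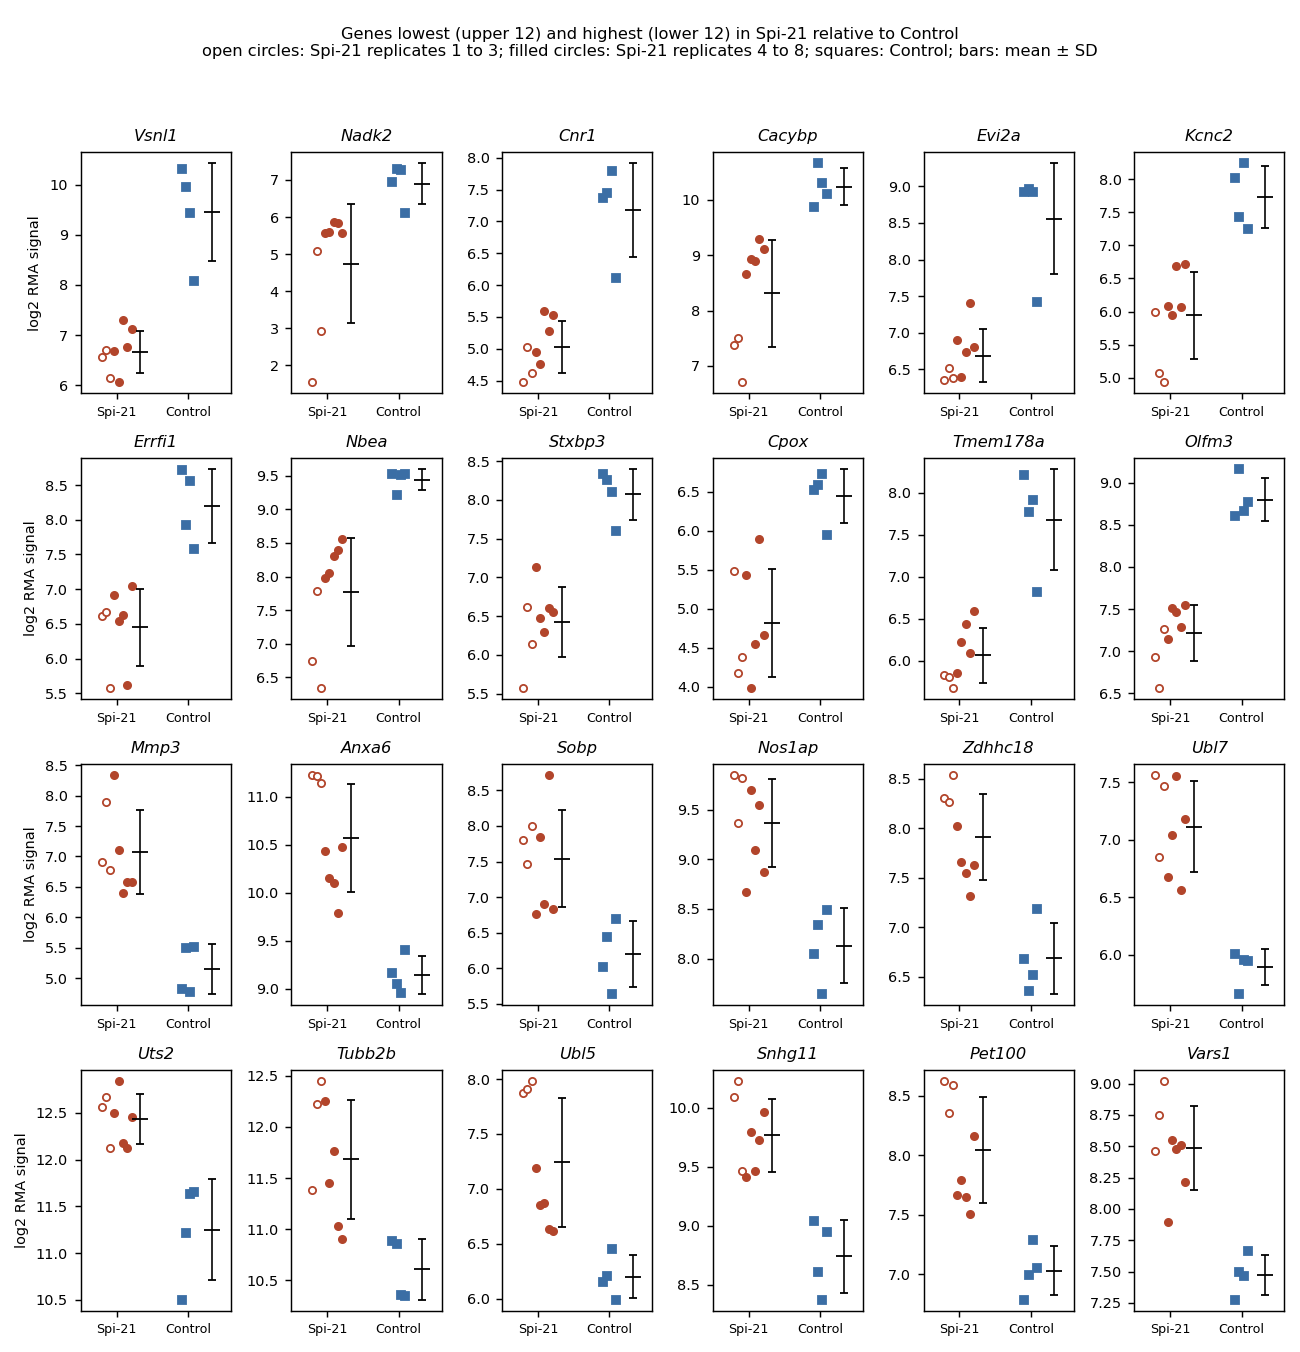
Log2 RMA signals of the 12 genes with the deepest decrease (upper rows) and the 12 with the largest increase (lower rows) among called genes with separated groups, each point 1 animal, with Spi-21 (circles, open for replicates 1 to 3) left of Control (squares) and bars for the mean and SD. In Vsnl1 all 8 circles lie at or below 7.30 and all 4 squares at or above 8.08, and in Nadk2, Cacybp, Anxa6, Ubl5 and Pet100 the open circles lie outside the filled ones.

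The promoters of 3 changed genes are shown because their start regions hold textbook elements. Each sequence is the 250 bases before the annotated start in RefSeq (build GRCr8), written 5′ to 3′ on the gene's strand, with the matched element in capitals. Vgf is a secreted neuropeptide precursor, and its promoter holds the cAMP response element TGACGTCA, read on both strands (it is its own complement), 90 to 83 bases before the start.
Vgf chr12:25277021-25277270 (minus strand): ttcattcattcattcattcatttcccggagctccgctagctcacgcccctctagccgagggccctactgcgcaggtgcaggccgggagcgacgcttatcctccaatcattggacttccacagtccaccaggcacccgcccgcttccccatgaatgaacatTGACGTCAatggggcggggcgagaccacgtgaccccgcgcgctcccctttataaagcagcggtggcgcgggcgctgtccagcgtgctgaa
Mmp3 holds an AP-1 element of the form TGANTCA, 71 to 65 bases before the start.
Mmp3 chr8:12925031-12925280 (plus strand): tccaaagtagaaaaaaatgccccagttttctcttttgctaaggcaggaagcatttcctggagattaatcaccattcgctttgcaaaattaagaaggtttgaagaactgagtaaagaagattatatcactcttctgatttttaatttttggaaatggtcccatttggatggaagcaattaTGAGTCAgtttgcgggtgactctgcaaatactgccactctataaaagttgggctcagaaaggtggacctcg
Ndufa6, a subunit of respiratory complex I that was lower in Spi-21, holds the element GCGCATGC of nuclear respiratory factor 1 on the reverse strand, 104 to 97 bases before the start.
Ndufa6 chr7:115750318-115750567 (minus strand): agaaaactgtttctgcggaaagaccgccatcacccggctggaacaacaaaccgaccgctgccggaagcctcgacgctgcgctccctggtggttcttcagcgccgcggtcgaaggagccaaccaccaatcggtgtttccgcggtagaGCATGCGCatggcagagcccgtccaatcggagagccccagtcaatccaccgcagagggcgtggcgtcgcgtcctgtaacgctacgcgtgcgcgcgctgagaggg
In the 27457 genes with a promoter in the table, TGACGTCA occurred in 1.7%, TGANTCA in 6.36% and GCGCATGC in 2.38% on either strand. Of the 12 highest genes 10 had a promoter there, and TGANTCA was found in that of Mmp3 alone and TGACGTCA in none. Vgf belongs to the list of 25 neuropeptide genes, of which 20 had a promoter there. TGACGTCA was in 3 of these (15%), those of Vgf, of Scg2, which was lower in Spi-21, and of Cartpt, which was not called. Of the 25 oxidative phosphorylation subunits that were lower and had a promoter there, 2 held GCGCATGC, against 5 of 60 of all subunits measured. These matches are descriptions of letters and say nothing about which factor was bound.

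The motor neuron's own genes moved in both directions. Of 21 measured motor neuron identity and cholinergic genes, 4 were higher (19.0%), 2 were lower (9.52%), and the median log2 fold change was 0.02. Prph read 12.40, 12.94 and 13.07 (lowest, median, highest) in Spi-21 animals and 11.66, 11.98, 12.05 and 12.71 in Control animals. Only Control replicate 4 reached into the Spi-21 range, and the rise was 0.78 ± 0.18 (adjusted p = 0.0044, limma). Slc5a7, the high-affinity choline transporter that feeds acetylcholine synthesis, read 9.18, 10.46 and 11.22 in Spi-21 animals and 11.11, 11.64, 11.65 and 11.76 in Control animals. It fell by 1.11 (adjusted p = 0.0095, limma), and by 0.76 without Spi-21 replicates 1 to 3 (adjusted p = 0.092, limma). After MAD scaling Slc5a7 was at -0.69 and was not called (adjusted p = 0.094, limma). Slc18a3, which loads acetylcholine into vesicles, differed by 0.02 ± 0.25 (adjusted p = 0.97, limma). Sv2a, a synaptic vesicle glycoprotein, was lower by 0.49, and Uts2, Nrg1 and Gfra1 were the other increases, the last 2 by 0.92 and 0.68. Nrg1 and Gfra1 were no longer called without Spi-21 replicates 1 to 3 (0.66 each, adjusted p = 0.13 and 0.10, limma), and Sv2a was not called in the fit of the 12 arrays alone. The synaptic vesicle and release genes, 58 in number, had 6 increases and 4 decreases (10.3% and 6.90%, against 5.94% and 10.7% of all probe sets), and 2 increases and 5 decreases without Spi-21 replicates 1 to 3. Syp, the vesicle membrane protein synaptophysin, read 9.87, 10.11 and 10.79 in Spi-21 animals and 9.77, 9.08, 9.03 and 9.25 in Control animals and rose by 1.00 ± 0.17 (adjusted p = 0.00033, limma). Vamp3 and Cadps2, which act in vesicle fusion and priming, were lower by 0.79 and 0.70. Syp, Vamp3, Cadps2 and Stxbp3 were the 4 genes of this list among the stable calls.

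Neuropeptide genes diverged within their own list of 25, with 5 lower (20%), 3 higher (12%) and a median of -0.08. Of all probe sets 10.7% were lower and 5.94% higher. Penk, the enkephalin precursor, read 5.90, 6.62 and 6.96 in Spi-21 animals and 9.14, 9.12, 8.89 and 6.67 in Control animals. It was lower by 1.90 (adjusted p = 0.001, limma), and only Control replicate 4 lay within the Spi-21 range. Pam, the enzyme that amidates peptides, Chgb, Scg5 and Scg2, which are granins or their partners in dense-core vesicles, were lower by 0.58, 0.82, 0.55 and 0.84. Chgb, Scg5 and Scg2 were no longer called without Spi-21 replicates 1 to 3, at -0.55, -0.34 and -0.85, and after MAD scaling none of the 4 was. Vgf read 10.36, 11.48 and 12.09 in Spi-21 animals and 9.74, 10.20, 10.44 and 10.31 in Control animals, with 1 Spi-21 animal below the highest Control value. It was higher by 1.23 ± 0.30 (adjusted p = 0.0067, limma), and by 0.88 without Spi-21 replicates 1 to 3 (adjusted p = 0.086, limma). Pcsk1n, an inhibitor of prohormone convertase, was higher by 1.08, and by 0.50 without Spi-21 replicates 1 to 3 (adjusted p = 0.21, limma). Uts2 is the third. After MAD scaling the list held 1 decrease and 4 increases, and without Spi-21 replicates 1 to 3 it held 2 decreases and 1 increase.

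Lists of ion channels and transmitter receptors ranged from no called gene to shares above the 10.7% lower and 5.94% higher of all probe sets. In the sodium channel list 1 of 11 measured genes was called, namely Scn10a, which was higher by 0.37 ± 0.12 (adjusted p = 0.029, limma) at the low levels of 5.86, 5.95 and 6.20 in Spi-21 animals and 5.70, 5.26, 5.61 and 5.86 in Control animals. Scn2a, a sodium channel of axons, had separated groups but did not pass the test (-0.51 ± 0.20, adjusted p = 0.078, limma). Scn10a was not called without Spi-21 replicates 1 to 3 nor in the fit of the 12 arrays alone, where Scn2a was. Of 37 voltage-gated potassium channel genes, 5 were lower (13.5%) and 2 were higher (5.41%), and 2 and 1 without Spi-21 replicates 1 to 3. Kcns3, a modifying subunit, read 6.43, 7.33 and 8.86 in Spi-21 animals and 8.75, 8.31, 8.68 and 8.51 in Control animals, with 1 Spi-21 animal above all Controls, and was lower by 1.15 (adjusted p = 0.002, limma). Kcna4, an A-type channel, was lower by 0.71 with separated groups, and by 0.54 without Spi-21 replicates 1 to 3 (adjusted p = 0.063, limma). Kcnip4, a partner of A-type channels, was higher by 0.46, at a median of 5.09 in Spi-21 animals. Among 27 calcium-activated, inward rectifier, leak and HCN channel genes only the inward rectifiers Kcnj6 and Kcnj16 were called, at -0.45 and -0.38, and neither was called after quantile normalization or without Spi-21 replicates 1 to 3. The other Kcnj6 probe sets differed by 0.17 and 0.24 (adjusted p = 0.21 and 0.12, limma). Of 23 voltage-gated calcium channel genes only Cacna1b, the N-type channel, was called, at 0.47 ± 0.13 (adjusted p = 0.013, limma), and at 0.38 without Spi-21 replicates 1 to 3 (adjusted p = 0.10, limma). None of 24 monoamine receptor genes, 5 metabotropic glutamate receptor genes or 8 sodium-potassium ATPase genes was called by limma, and 4, 0 and 2 of them had an unadjusted p under 0.05. At this number of animals that is no evidence of equal levels, and the serotonin receptor Htr2a, for example, differed by 0.23 ± 0.11 (adjusted p = 0.14, limma).

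Chloride handling included a change that held under each scaling. Slc12a2 encodes NKCC1, the cotransporter that carries chloride into the cell. It read 7.71, 8.53 and 8.89 in Spi-21 animals and 10.18, 9.97, 10.09 and 9.33 in Control animals. The groups did not overlap, and Slc12a2 was lower by 1.49 (adjusted p = 0.00018, limma) and by 1.66 without Spi-21 replicates 1 to 3. It lies among the stable calls. Car2, a carbonic anhydrase that supplies bicarbonate, was lower by 0.94 with separated groups, and Clns1a, a chloride current regulator, was lower by 0.98. Both NKCC1 and this carbonic anhydrase are also made by oligodendrocytes, whose markers were lower in the same animals as described below. Of the 25 genes of the list, 4 were lower (16.0%), 2 were higher (8.00%) and the median was 0.07, and 3 and 2 were called without Spi-21 replicates 1 to 3. The shares over all probe sets were 10.7% lower and 5.94% higher. Of 19 GABA and glycine receptor genes Gabbr2, a subunit of the metabotropic GABA receptor, was lower by 0.86 ± 0.16 (adjusted p = 0.00084, limma), with values of 7.10, 7.57 and 7.95 in Spi-21 animals and 8.92, 8.35, 8.47 and 7.93 in Control animals. Gabrr3 and Gabrp were called at 0.42 and 0.46, with highest Spi-21 values of 5.33 and 5.00, and neither was called in the fit of the 12 arrays alone (adjusted p = 0.063 and 0.11, limma). Gabrp lay at the threshold (adjusted p = 0.050, limma) and kept its call in 4 of the 12 fits that each left out 1 animal. Without Spi-21 replicates 1 to 3 Gabrp was not called (0.32, adjusted p = 0.29, limma). Among 21 ionotropic glutamate receptor genes Gria4, an AMPA receptor subunit, and Dlg2, a postsynaptic scaffold, were each lower by 0.64, and neither was called in the fit of the 12 arrays alone or without Spi-21 replicates 1 to 3.

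The calcium-binding proteins of the list of 25 sensors, buffers and CaM kinases had 4 decreases (16.0%) and no increase, with a median of 0.03, and 3 decreases without Spi-21 replicates 1 to 3. The shares over all probe sets were 10.7% lower and 5.94% higher. Beside Vsnl1 the 4 decreases were Calb1, Calb2 and Pvalb, the buffers calbindin, calretinin and parvalbumin. Calb2 read 6.35, 6.79 and 7.32 in Spi-21 animals and 9.07, 7.93, 7.52 and 7.44 in Control animals, and was lower by 1.15 ± 0.27 (adjusted p = 0.0045, limma). Calb1 was lower by 0.93 with separated groups, and Pvalb by 0.34 with overlapping ones (0.37 without Spi-21 replicates 1 to 3, adjusted p = 0.060, limma). These buffers are also classical markers of spinal interneurons. Itpr3, a calcium release channel, was higher by 0.82 (adjusted p = 0.0047, limma) and by 0.62 without Spi-21 replicates 1 to 3 (adjusted p = 0.055, limma). Atp2a2, the calcium pump of the endoplasmic reticulum, lay at the threshold (-0.47, adjusted p = 0.050, limma) and at -0.05 after MAD scaling. Without Spi-21 replicates 1 to 3 it was not called (-0.35, adjusted p = 0.24, limma). A dimmer Atp2a2 probe set was lower by 0.61 (adjusted p = 0.006, limma), and the dimmest differed by 0.08 (adjusted p = 0.69, limma).

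Growth-related genes had the highest share of increases among the 37 functional lists. Of 24 regeneration-associated genes 8 were higher and none was lower, with a median of 0.34, where 5.94% of all probe sets were higher and 10.7% were lower. Atf3, a transcription factor induced by nerve injury, read 7.11, 8.25 and 9.85 in Spi-21 animals and 5.95, 8.23, 5.52 and 6.20 in Control animals. Control replicate 2 lay within the Spi-21 range, and Atf3 differed by 1.95 ± 0.67 (adjusted p = 0.044, limma). It kept its call in 4 of the 12 fits that each left out 1 animal. Ngfr, the p75 neurotrophin receptor, read 5.62, 7.40 and 9.16 in Spi-21 animals and 5.27, 5.52, 5.82 and 5.61 in Control animals, a difference of 1.88 ± 0.60 (adjusted p = 0.029, limma), and of 1.20 without Spi-21 replicates 1 to 3 (adjusted p = 0.24, limma). The Spi-21 animals thus spread over a far wider range than the Controls in this gene. Tubb2b and Tubb3, tubulins of growing axons, were higher by 1.07 and 0.80, Stat3 by 0.81, its inhibitor Socs3 by 0.37, Basp1, a growth cone protein, by 0.70 and Gfra1, the GDNF co-receptor, by 0.68. After quantile normalization 12 of the 24 were higher and after MAD scaling 13, but in the fit of the 12 arrays alone 3 were and without Spi-21 replicates 1 to 3 none was, with a median of 0.27. In that last fit Tubb3 was at 0.39 and Basp1 at 0.41. The list of 57 tubulins, neurofilaments and axonal transport motors had 7 increases (12.3%) and 1 decrease. The increases numbered 18 after MAD scaling, 3 in the fit of the 12 arrays alone and 1, Prph, without Spi-21 replicates 1 to 3, each beside 1 decrease. Map2, the dendritic microtubule-associated protein, was higher by 0.80 (adjusted p = 0.0071, limma), with values of 5.33, 5.61 and 6.59 in Spi-21 animals and 4.95, 4.39, 4.81 and 5.58 in Control animals, and was no longer called without Spi-21 replicates 1 to 3 (0.59, adjusted p = 0.058, limma). Of 39 axon guidance genes 3 were higher (7.69%) and 2 lower (5.13%). Nrp1, a semaphorin and VEGF receptor, rose by 1.10 (adjusted p = 0.0065, limma), and by 1.03 without Spi-21 replicates 1 to 3. Dcc, a netrin receptor, and Ephb6, an ephrin receptor, were called at 0.46 and 0.47, and Plxnb1, a semaphorin receptor, and Rtn4, which encodes Nogo, at -0.56 and -0.83. The probe sets of Plxnb1 disagreed. Another one was higher by 0.39 (adjusted p = 0.019, limma), and a further one differed by -0.15 (adjusted p = 0.48, limma). Dcc, Ephb6 and Rtn4 were no longer called without Spi-21 replicates 1 to 3, and after MAD scaling neither Plxnb1 nor Rtn4 was. Of 26 cadherin and catenin genes 4 were lower (15.4%) and 2 higher (7.69%). Pcdh20, Ctnna1, Fat1 and Cdh11 were lower, by 1.54, 1.01, 1.18 and 1.10, and Cdh15 and Celsr2 were called at 0.49 each. Celsr2 was at 0.26 without Spi-21 replicates 1 to 3. Pcdh20 and Fat1 alone stayed called without Spi-21 replicates 1 to 3. Dimmer probe sets of Cdh11 and Pcdh20 differed by -0.03 and -0.31 (adjusted p = 0.92 and 0.37, limma).

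Mitochondrial genes had the highest shares of decreases among these lists, but their direction depended on the scaling of the arrays. Of all probe sets 10.7% were lower and 5.94% higher. Of 68 oxidative phosphorylation subunits 28 were lower (41.2%) and 2 higher (2.94%), with a median of -0.30. After quantile normalization 20 were lower and 4 higher (median -0.15), and after MAD scaling 7 were lower and 9 higher (median 0.04). Without Spi-21 replicates 1 to 3, 8 were lower and none was higher (median -0.28). Those that stayed called under each of these settings and in the fit of the 12 arrays alone were Ndufs1, Cox7b and Ndufa6. Cox7b, a cytochrome c oxidase subunit, read 9.45, 9.68 and 10.03 in Spi-21 animals and 10.57, 10.78, 10.59 and 10.51 in Control animals, and was lower by 0.90 ± 0.12 as deposited (adjusted p = 7.6e-05, limma) and by 0.54 after MAD scaling. Ndufs1, a core subunit of complex I, read 7.31, 8.65 and 9.15 in Spi-21 animals and 9.66, 9.64, 9.60 and 9.28 in Control animals, and was lower by 1.14 ± 0.24 (adjusted p = 0.0024, limma) and by 0.68 without Spi-21 replicates 1 to 3. Ndufa6, whose promoter is printed above, was lower by 0.57 ± 0.11 with separated groups (adjusted p = 0.0013, limma) and by 0.30 after MAD scaling. Of 19 enzymes of the tricarboxylic acid cycle 9 were lower (47.4%) and none was higher, with a median of -0.43. After MAD scaling 1 was lower, and without Spi-21 replicates 1 to 3 there were 2. The 1 after MAD scaling was Dld, the shared lipoamide dehydrogenase subunit, at 5.59, 6.65 and 7.34 in Spi-21 animals and 7.64, 7.71, 7.78 and 8.17 in Control animals, a change of -1.37 ± 0.30 (adjusted p = 0.0033, limma). Glycolytic enzymes and glucose transporters had 2 of 25 lower (8%), which is below the 10.7% of all probe sets. They were Slc16a1, a lactate carrier, and Ldhb, the lactate dehydrogenase of oxidative tissue, and neither was called without Spi-21 replicates 1 to 3. Slc16a1 was at -0.86 with these 3 animals and at -0.47 without them.

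Ribosomal, chaperone and proteasome lists had shares of decreases above the 10.7% of all probe sets, from 24.4 to 29.0%, and fewer calls without Spi-21 replicates 1 to 3. Of 68 mitochondrial ribosomal proteins 17 were lower and 4 higher (median -0.24), after MAD scaling 9 and 8, and without these 3 animals 6 and 2. Mrpl18 read 7.15, 7.69 and 7.99 in Spi-21 animals and 8.82, 8.41, 8.63 and 8.41 in Control animals, a change of -0.88 ± 0.16 (adjusted p = 0.00076, limma). In the other direction Mrpl45 and Mrpl37 rose by 0.80 and 0.59, both with separated groups. Of 41 cytosolic ribosomal proteins 10 were lower and 1 higher (median -0.27), and after MAD scaling 2 were lower and 4 higher (median 0.02). Without Spi-21 replicates 1 to 3 none was called by limma. The 1 that rose was Rps28, at 11.86, 12.17 and 12.52 in Spi-21 animals and 11.73, 11.64, 11.52 and 11.73 in Control animals, a rise of 0.54 ± 0.13 (adjusted p = 0.0049, limma). No cytosolic ribosomal protein was among the stable calls. Chaperones of the Hsp and Dnaj families had 18 of 62 lower and 2 higher (median -0.28), 7 and 4 after MAD scaling, and 5 and none without Spi-21 replicates 1 to 3. Hspa13, an Hsp70 of the endoplasmic reticulum, read 6.41, 6.97 and 7.17 in Spi-21 animals and 7.72, 8.04, 7.81 and 7.84 in Control animals, a change of -0.99 ± 0.19 (adjusted p = 0.001, limma). Proteasome genes had 10 of 40 lower and 2 higher (2 and 4 after MAD scaling, 2 and none without Spi-21 replicates 1 to 3), with Psmc5 and Psmg1, an ATPase of the cap and an assembly chaperone, at -0.75 and -0.88. Translation factors lay near the share of all probe sets, with 7 of 51 lower (13.7%) and 3 higher (5.88%), among them the helicase Eif4a2 at -1.23 and the translation factor Eif5a at 0.63, and after MAD scaling 4 were lower and 6 higher.

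**Figure D3:**
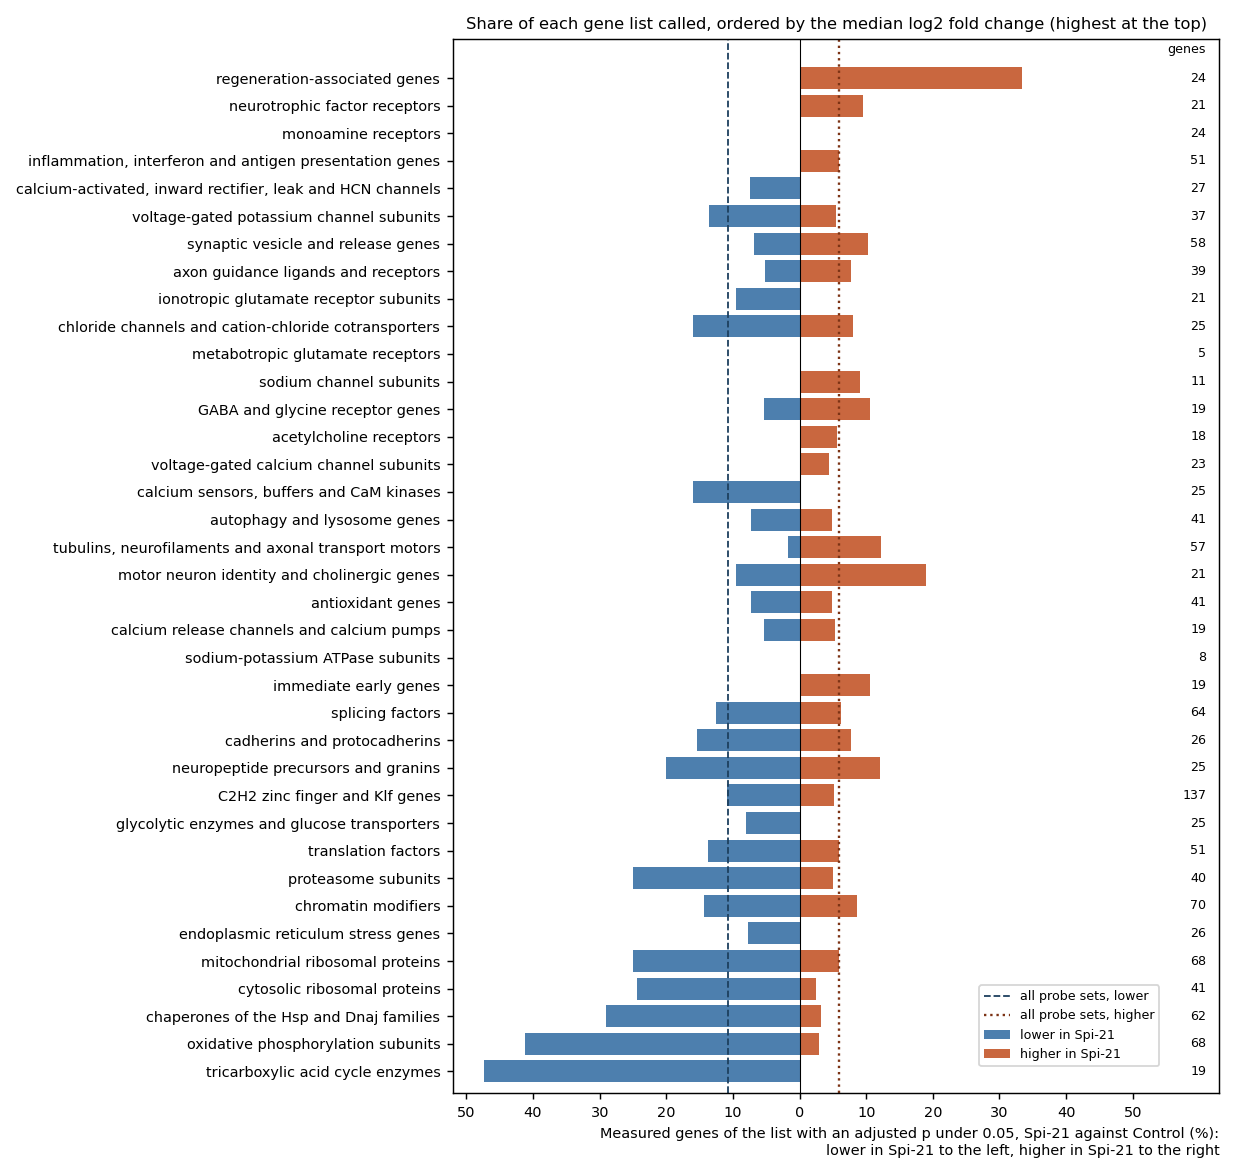
For each of the 37 functional gene lists the bars give the percentage of measured genes that were lower (left) and higher (right) in Spi-21 than in Control at an adjusted p under 0.05, with the background of all probe sets as dashed (10.7%) and dotted (5.94%) lines and the number of genes at the right edge. The mitochondrial lists at the bottom reach furthest left and the regeneration-associated genes at the top furthest right.

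The zinc finger, chromatin and splicing lists lay near the 10.7% lower and 5.94% higher of all probe sets. Of 137 zinc finger genes 15 were lower (10.9%) and 7 higher (5.11%), of 70 chromatin modifiers 10 (14.3%) and 6 (8.57%), and of 64 splicing factors 8 (12.5%) and 4 (6.25%). Kat2b, a histone acetyltransferase, read 5.66, 6.31 and 6.79 in Spi-21 animals and 7.65, 7.73, 8.40 and 7.56 in Control animals, a change of -1.51 ± 0.28 (adjusted p = 0.00076, limma). U2af2, a core splicing factor, was higher by 0.67, and Hnrnpd and Hnrnpa2b1, which bind and process mRNA, were lower by 0.80 and 1.33. Hnrnpa2b1 was at -0.82 without Spi-21 replicates 1 to 3 (adjusted p = 0.12, limma). Among 19 immediate early genes 2 were higher and none lower. Beside Atf3, Fosl1, a Fos relative that forms AP-1, rose by 0.80 with separated groups (adjusted p = 0.014, limma). Egr1, an activity-dependent transcription factor, ranged from 5.82 to 10.38 in Spi-21 animals and from 6.51 to 10.28 in Control animals and was not called (-1.18 ± 0.70, adjusted p = 0.25, limma). Of 51 inflammation, interferon and antigen presentation genes 3 were higher (5.88%), namely the chemokine Ccl5 (0.43), the class II gene RT1-Ba (0.41) and the alarmin Il33 (1.46 ± 0.48, adjusted p = 0.033, limma), and none was lower, where 10.7% of all probe sets were. Il33 read 6.23, 7.54 and 8.81 in Spi-21 animals and 5.67, 6.02, 5.76 and 6.85 in Control animals. It was at 1.57 without Spi-21 replicates 1 to 3 (adjusted p = 0.081, limma), and it kept its call in 8 of the 12 fits that each left out 1 animal. RT1-Ba was no longer called without these 3 animals either (0.31, adjusted p = 0.11, limma). A dimmer Il33 probe set was at 0.75 with all animals (adjusted p = 0.17, limma).

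Markers of some of the cells around the motor neurons differed as well, where 10.7% of all probe sets were lower and 5.94% higher. Of 14 oligodendrocyte markers 9 were lower (64.3%) and none higher (7 and none without Spi-21 replicates 1 to 3), with a median of -0.73. Their summed level lay between 3595 and 6714 in Spi-21 animals and between 6437 and 12194 in Control animals. Mbp, the myelin basic protein, read 8.77, 9.25 and 10.30 in Spi-21 animals and 11.55, 10.58, 10.98 and 9.49 in Control animals, a change of -1.28 ± 0.29 (adjusted p = 0.0041, limma). Of 13 interneuron markers 5 were lower (38.5%) and none higher (4 and none without Spi-21 replicates 1 to 3), although the median was -0.07. Calb2 and Pvalb, counted above among the calcium-binding proteins, were among these 5. The summed level of the list lay between 704 and 1149 in Spi-21 animals and between 979 and 3304 in Control animals. Gad1, which makes GABA, read 5.32, 6.36 and 8.25 in Spi-21 animals and 9.96, 9.72, 9.71 and 7.24 in Control animals, a change of -2.53 ± 0.59 (adjusted p = 0.0048, limma). Slc32a1 and Slc17a6, the vesicular transporters of GABA and glycine and of glutamate, were each lower by 1.87, with adjusted p-values of 0.0023 and 0.0034 (limma). In Slc32a1 and Slc17a6 as in Gad1, Penk and Vsnl1 the lowest Control value was that of replicate 4, whose summed level of interneuron markers, 979, lay within the Spi-21 range. Of 14 microglia and macrophage markers 3 were higher (21.4%), Trem2 by 0.45, C1qb by 0.53 and Cx3cr1 by 0.33, and none lower (median 0.39). Summed levels were 897 to 4576 in Spi-21 animals and 926 to 1332 in Control animals. The highest was that of Spi-21 replicate 4, and the next highest Spi-21 value was 1897. Without Spi-21 replicates 1 to 3 none of the 14 was called by limma, with Trem2, C1qb and Cx3cr1 at 0.34, 0.44 and 0.19 (adjusted p = 0.087, 0.10 and 0.27, limma). Of 12 astrocyte markers Gfap, the filament of reactive astrocytes, was higher by 1.34 ± 0.40 and the glutamate carrier Slc1a3 lower by 0.94 (adjusted p = 0.020 and 0.034, limma), with summed levels of 12767 to 19354 in Spi-21 animals and 14542 to 22802 in Control animals. Neither Gfap nor Slc1a3 was called in the fit of the 12 arrays alone or without Spi-21 replicates 1 to 3 (1.14 and -0.66). None of 9 endothelial and pericyte and none of 10 Schwann cell and fibroblast markers was called by limma, with an unadjusted p under 0.05 in 2 and 1 of them. The part of these markers in the decreases of Vsnl1, Cnr1, Penk, Calb2 or Slc12a2 was not tested.

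**Figure D4:**
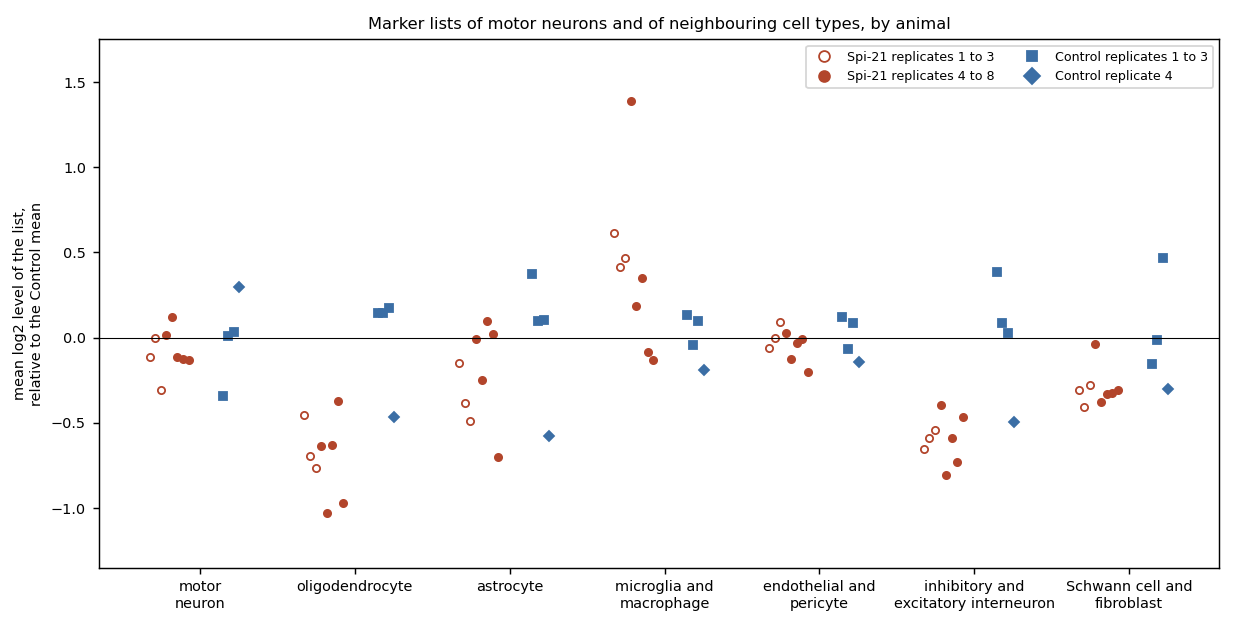
Each point is 1 animal and gives the mean log2 level of a marker list relative to the Control mean, with Spi-21 (circles, open for replicates 1 to 3) left of Control (squares, and a diamond for replicate 4). The motor neuron lists of both groups overlap, whereas the Spi-21 circles of the oligodendrocyte and interneuron lists lie below the 3 Control squares, next to the diamond.

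The same genes are given at the other times with the same 4 Control animals, which all these values share. Cnr1 differed from Control by -1.91, -1.79, -2.15 and -2.10 at days 2, 7, 21 and 60, and Vsnl1 by -2.18, -2.33, -2.78 and -2.36. Uts2 differed by 1.06, 0.98, 1.18 and 1.06 and Mmp3 by 1.92, 2.38, 1.93 and 1.77. These 4 genes were thus near their day 21 value at each of the other times, in arrays of both studies. Atf3 differed by 3.95, 3.18, 1.95 and 1.83 and Tubb2b by 1.90, 1.82, 1.07 and 0.64, with the smaller values at the later times. A further set passed the test against Control at days 21 and 60, the times that came from the earlier study, and not at days 2 and 7. The difference between the times was not tested in them. Cpox differed by -0.16, -0.18, -1.63 and -1.05, Psmd14, a deubiquitinase of the proteasome, by -0.11, -0.14, -0.87 and -0.95, Vars1 by 0.23, -0.05, 1.01 and 0.87, and Eif5a by 0.01, -0.06, 0.63 and 0.89. In these 4 genes the adjusted p-values were 0.68 or more at days 2 and 7 and 0.019 or less at days 21 and 60 (limma), and time and study cannot be told apart. At day 21 without Spi-21 replicates 1 to 3, Psmd14 (-0.56, adjusted p = 0.14), Vars1 (0.85, adjusted p = 0.073) and Eif5a (0.44, adjusted p = 0.051, limma) were no longer called. Between Spi-60 and Spi-21, which come from the same study, 9 of 12913 probe sets differed (0.0697%), none of them among the genes named here.

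**Figure D5:**
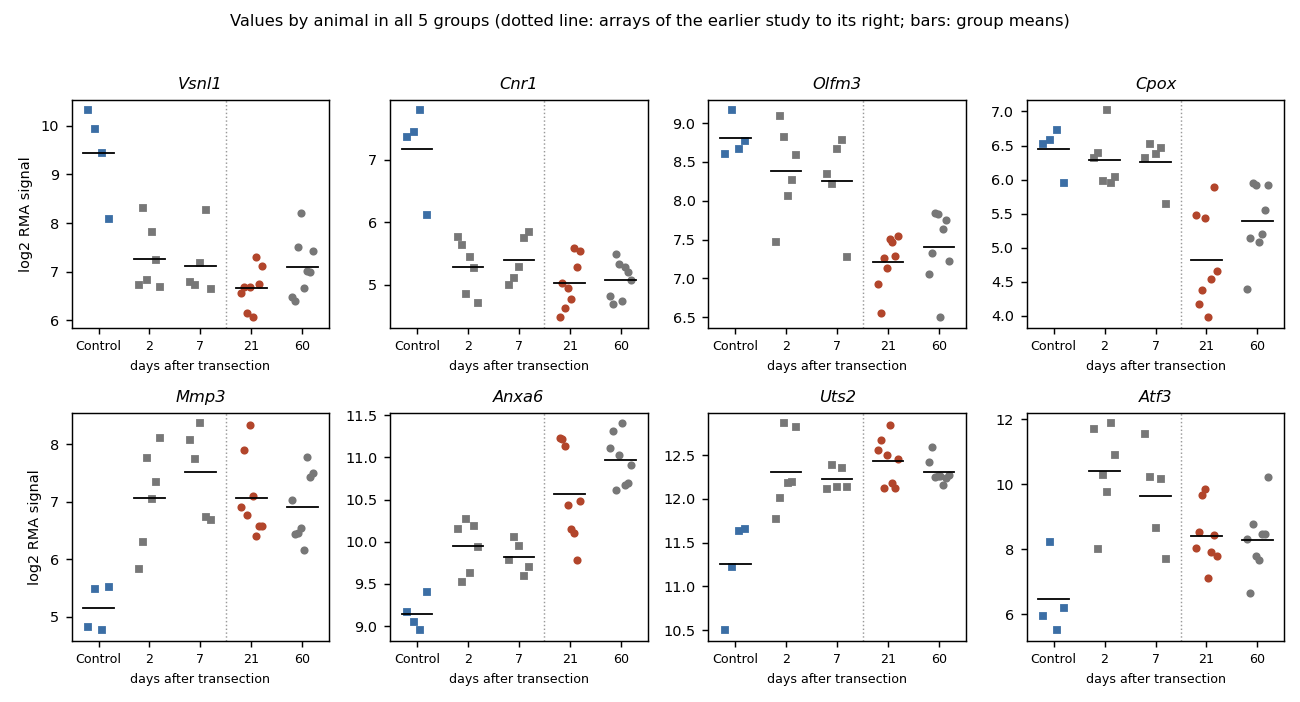
Log2 RMA signals of 8 genes in all 5 groups, each point 1 animal and each bar a group mean, with Control at the left and days 2, 7, 21 and 60 to the right, and a dotted line before the arrays of the earlier study. Vsnl1, Cnr1, Mmp3 and Uts2 step away from Control at each time, while the Cpox means stay within 0.2 of Control on the left of the line and lie 1.05 or more below it on the right.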

How the data were processed

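The deposited values were log2 expression summaries. Per the study's methods the authors background-corrected and normalized the arrays, computed RMA (Robust Multi-array Average) summaries, applied a further background compensation and discarded probe sets without an Ensembl entry. The RNA had passed 2 rounds of amplification, which favours 3′ ends. Of 12919 rows 6 were array controls and 12913 were tested, of which 11880 carried 1 gene symbol, 320 several and 713 none in the platform annotation.

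The log2 values of the whole series (31 arrays) were fitted with 1 mean per group in limma 3.58.1 (R 4.3.3), and Spi-21 minus Control was tested with Benjamini-Hochberg adjustment over all probe sets and a threshold of 0.05. Array measures were compared by exact two-sided permutation. The fit was tested on simulated data. The number of animals limits the precision. A gene in a list was represented by its brightest probe set. Named genes were the 12 lowest and 12 highest called genes with separated groups, up to 4 members of each list by p, 3 brightest markers of each cell type, and Slc18a3, Slc5a7 and Prph. Members counted in a list and mentioned beside these were chosen after their values were seen. Members and lists were chosen with earlier results of these data known. Alternatives changed the arrays fitted, the scaling, the filter, the weights, the moderation, a replicate block and a 3′ covariate, or left animals out.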

Additional observations from a re-analysis of the deposited data

Results flagged for a closer look

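In 396 groups of values (the named probe sets and 3 array measures, each in Spi-21 and in Control) 26 held 1 animal far from the others of its group by Dixon's criterion, 9 in Spi-21 and 17 in Control. About 1 group in 20 is marked by chance alone. Control replicate 4 was marked in 8 of them. It was the low animal for Gad1 (7.24, the other 3 at 9.71 to 9.96), Penk (6.67, others 8.89 to 9.14), Evi2a (7.42, others 8.92 to 8.97), Slc1a3 (7.31, others 8.62 to 8.85), Ermn (7.03, others 7.91 to 8.06), Cldn11 (11.47, others 12.14 to 12.22) and Ndufs1 (9.28, others 9.60 to 9.66), and the high animal for Hspa5 (10.74, others 10.50 to 10.53). In Gad1, Penk, Slc1a3, Ermn and Cldn11, genes of inhibitory neurons, enkephalin neurons, astrocytes and oligodendrocytes, it thus lay nearest to the Spi-21 animals.

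Spi-21 replicate 7 was the low animal for Prph (12.40), Stat3 (6.27), Ulk2 (6.38) and Aldoc (11.65) and the high animal for the oligodendrocyte gene Ermn (7.56, others 5.48 to 6.35). Spi-21 replicate 3 was low for Mrpl18 (7.15) and Mgst1 (6.80), replicate 4 for Ephb6 (7.07), and replicate 1 was high for Hk2 (5.78). Control replicate 1 was low for Cacna1h (5.35, others 6.54 to 6.72) and Rps15a (8.66) and high for Ndrg2 (12.99), Control replicate 2 was low for Nbea (9.21), Fgf14 (6.21) and Itgam (5.10) and had the highest 3′ minus 5′ difference of Actb (3.17), and Control replicate 3 was low for Stat3 (6.53) and high for Chrna6 (5.58). No named gene differed between Spi-60 and Spi-21 at an adjusted p under 0.05 (limma), and 25 of the 195 named probe sets did at an unadjusted p under 0.05.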

How the results depend on the processing

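The count of 2148 changed probe sets was 1364 when only the 12 arrays of both groups entered the fit and 680 without Spi-21 replicates 1 to 3, which leaves fewer animals. It ranged from 1197 to 2415 when 1 animal was left out, with the 2 smallest counts without Control replicates 2 and 3. The share that was higher in Spi-21, 35.7%, was 26.0% with the 12 arrays alone, 52.1% after quantile normalization, 55.3% after MAD scaling, 38.4% with array weights and 25.7% without Spi-21 replicates 1 to 3, and 31.1 to 38.1% with 1 animal left out. The median absolute log2 change of the 2148 calls was 0.61 with all animals and 0.49 without Spi-21 replicates 1 to 3. The cause of these differences was not tested. A block for the replicate number gave a count of 2108 and a share of 36.4%, but the numbers only name animals, since same-numbered Spi-21 and Control animals deviated together with correlations of -0.14 to 0.10. The interquartile range differed by -0.18 to -0.15, the Gapdh difference by 0.09 to 0.44 and the Actb difference by 0.37 to 0.52 with 1 animal left out, the last with p = 0.0606 (exact permutation) without Control replicate 1, 3 or 4. Of 195 named probe sets 138 were called, and 66 of these stayed called under each of the 21 alternatives. Atp6v1d, a proton pump subunit, was at -0.49 as deposited and at 0.033 after MAD scaling, the only called named gene whose direction turned. Without Spi-21 replicates 1 to 3 Atp6v1d was not called (-0.33, adjusted p = 0.067, limma). Of the 57 named probe sets that were not called, 9 turned under at least 1 alternative. The other 72 lost the call under at least 1 alternative, with 58 lost without Spi-21 replicates 1 to 3, 28 in the fit of the 12 arrays, 22 after MAD scaling, 12 after quantile normalization and up to 34 (without Control replicate 3) when 1 animal was left out. There is no detection call, so that differences of dim probe sets such as Gabrr3 or Kcnip4 carry no check against background. Dimmer probe sets of the same gene were not called for Gad1, Slc1a3, Gabbr2, Gria4, Kat2b, U2af2, Hnrnpa2b1, Mbp, Stat3, Gfra1, Ubl5 and RT1-Ba. Those of Gad1 and Gabbr2 were at 0.14 and 0.18. Those of Vsnl1, Cacybp, Car2 and Psmd14 were lower too, by 1.02, 0.55, 0.58 and 0.73.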
